A study of Arabidopsis thaliana with 12 samples.

Results

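Promoter bins without a transposon were the bins of 100 bp on chromosomes 1 to 5 that the authors had marked as promoter and in which they had placed no transposable element, gene body or mature miRNA. They were found from the annotation column and by name, without a threshold on a measured value. The choice of bins, with those left out, was made with earlier results of these data known. After the bins of 6 named promoters and of 2 named stretches had been left out (33 bins), 10911 of the 152484 listed bins remained, which is 7.28% of the 149794 nuclear bins. They lay in the promoters of 4300 genes. Small RNA had been sequenced from inflorescences of Arabidopsis thaliana plants of the Col-0 ecotype, kept at 22 °C under 16 h light and 8 h dark. The 4 groups were the untreated wild type Col-0 and the mutants heso1-1, urt1-1 and ntp4-1, also untreated, and each group had 3 biological replicates. Whether a replicate was 1 plant or a pool of plants, the plants' age, and the kind of lesion in each mutant were not given in the sources used here. Inflorescences mix many cell types, so fewer cells of a type and less RNA per cell cannot be told apart in these values.

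Plant promoters can give rise to small RNA in several ways. In RNA-directed DNA methylation, Pol IV makes short transcripts that RDR2 copies into double strands, DCL3 cuts into siRNAs, and AGO4 uses to guide methylation of the DNA from which they came. The textbook targets are transposons and repeats, but some gene promoters are targets as well. HESO1 and URT1 are nucleotidyl transferases: they tail unmethylated small RNAs with U, which marks the RNA for decay. NTP4 belongs to the same family of nucleotidyl transferases, and the series asks how it acts on miRNA duplexes.

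The sequences below are those of the bins on which the results turn, read from TAIR10.1 on the plus strand. The first 7 stretches hold bins that were called between genotypes, and AT1G31175 gives the single promoter bin with the highest mean level. Capitals in these 8 stretches mark bases inside 24-base words that occur more than once in the nuclear genome, so a stretch in lower case is unique at that length. Capitals in SDC, a gene known for silencing through tandem repeats, mark bases inside 12-base words found again within 300 bases.
AT1G29550, chr1:10330001-10330100: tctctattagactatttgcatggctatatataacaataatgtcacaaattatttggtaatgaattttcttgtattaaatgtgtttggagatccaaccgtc
AT3G62529, chr3:23130801-23130900: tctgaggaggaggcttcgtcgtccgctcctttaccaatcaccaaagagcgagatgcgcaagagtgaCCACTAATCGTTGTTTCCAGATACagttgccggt
AT5G44600, chr5:17989401-17989500: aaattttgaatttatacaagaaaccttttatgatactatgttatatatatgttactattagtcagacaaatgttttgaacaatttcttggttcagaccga
AT4G18380, chr4:10156801-10157000: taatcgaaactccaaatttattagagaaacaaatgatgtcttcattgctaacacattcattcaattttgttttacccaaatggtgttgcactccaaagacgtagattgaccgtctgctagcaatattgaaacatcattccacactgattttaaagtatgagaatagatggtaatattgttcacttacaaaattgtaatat
AT4G10620, chr4:6563901-6564000: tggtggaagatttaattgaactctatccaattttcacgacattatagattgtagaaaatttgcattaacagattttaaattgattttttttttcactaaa
AT2G40095, chr2:16742401-16742500: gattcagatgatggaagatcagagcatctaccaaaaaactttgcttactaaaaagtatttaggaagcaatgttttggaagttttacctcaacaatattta
AT5G20090 and AT5G20100, chr5:6789401-6789500: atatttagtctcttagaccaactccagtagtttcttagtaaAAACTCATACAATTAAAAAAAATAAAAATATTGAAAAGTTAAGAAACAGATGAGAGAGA
AT1G31175, chr1:11140001-11140100: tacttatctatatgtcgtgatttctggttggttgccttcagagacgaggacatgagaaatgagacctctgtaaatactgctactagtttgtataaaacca
SDC, chr2:7681901-7682100: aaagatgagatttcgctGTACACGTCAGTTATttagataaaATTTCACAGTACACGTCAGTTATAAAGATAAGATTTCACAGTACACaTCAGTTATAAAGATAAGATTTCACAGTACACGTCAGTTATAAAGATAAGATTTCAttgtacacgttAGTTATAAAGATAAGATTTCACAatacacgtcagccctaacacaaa

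The values were read counts per bin scaled to library size by the authors (RPM), as deposited. Whole reads were recovered for 11 libraries, with totals of 2761330 to 11191516 reads, and 1 read was worth 0.0894 to 0.362 RPM. The nuclear bins held 24.2% of the assumed total in ntp4-1 replicate 1 and 38.1% to 62.6% in the other libraries. Libraries also fell into 2 sets that crossed the genotypes. The leading component of their deviations from the group means, over nuclear bins outside the promoter bins described here, held 61.9% of the variance. It put replicate 1 of each genotype and urt1-1 replicate 3 in set A and the other 7 libraries in set B. These sets were defined from the data, and their cause was not tested. Among other markers, the summed chloroplast bins were 31100 to 42300 RPM in Col-0, 25500 to 43200 in heso1-1, 33300 to 49700 in urt1-1 and 38800 to 65600 in ntp4-1. All 3 pollen miRNAs (miR845a, miR845b and miR2939) were detected in every group. Their summed level was 1480 to 2850 RPM in Col-0, 126 to 2430 in heso1-1, 347 to 2070 in urt1-1 and 289 to 853 in ntp4-1. The bins of miR172, a floral regulator, summed to 36.2 to 321 RPM in Col-0, 72.7 to 3660 in heso1-1, 28.5 to 634 in urt1-1 and 9.48 to 476 in ntp4-1. The part of these markers in the differences between genotypes was not tested.

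Most promoter bins held little small RNA and a few held much. The median over the 10911 bins was 0.734 RPM for the mean of the Col-0 libraries, the 90th percentile was 9.57 RPM and the 99th percentile was 67.8 RPM. Over all 12 libraries, 6654 bins (61.0%) had a mean under 1 RPM and together held 5.86% of the summed level. By contrast, the 118 bins with a mean of at least 50 RPM held 33.4% of it, and the top 10% of bins held 73.6%. A read was seen in all 12 libraries at 4347 bins (39.8%), and 57 bins (0.522%) were at 0 in all Col-0 libraries. A promoter had a median of 2 bins that met the rule and at most 10, and 1383 promoters had a single one. Other listed bins of the same promoters, such as those with a transposon, are not counted here. The promoters reach about 1000 bp, which limits the number of bins. Where a promoter had at least 5 bins (803 promoters), its strongest bin held a median of 44.8% of its Col-0 level, with quartiles of 33.9% and 58.0%.

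Repeats were scarcer in these bins than in promoter bins that hold a transposon. On average 15.7% of the 24-base words in a promoter bin occurred more than once in the nuclear genome, against 37.1% in the 19856 promoter bins that do hold a transposon and 36.9% in bins with a transposon only. No repeated word was found in 58.7% of the promoter bins without a transposon and in 24.4% of those with one. Their mean Col-0 level was 4.97 RPM (median 0.734), against 2.28 RPM (median 0.567) in promoter bins with a transposon and 5.29 RPM (median 0.390) in gene-body bins without one. The 118 strongest bins held fewer repeated words still, 6.8% on average, with a mean GC content of 36.6% against 33.5% in bins under 1 RPM. These are descriptions of bins that share libraries, and no test was run between the classes.

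Transposons nearby were compared in 2 ways, beside the bin and within 50 kb. The 1264 bins with a transposon bin directly beside them (11.6%) had a median Col-0 level of 0.939 RPM, and the other 9647 bins had 0.707 RPM. Promoters of annotated transposable element genes, whose 2440 bins carry no transposon mark of their own, had the lower level, with a median of 0.468 RPM against 0.854 RPM for other promoters. Levels were also lower where more transposon bins lay within 50 kb. The bins were split into 4 classes of about equal size by this number. In the class with the fewest such neighbours (0 to 25) the median was 1.07 RPM, and in the class with the most (235 to 596) it was 0.504 RPM. The 4 classes, from few to many, held 34.2%, 31.8%, 22.0% and 12.1% of the Col-0 level. Part of this went with the promoters of transposable element genes, which made up 2.11% of the first class and 52.4% of the last. Among other promoters alone the medians were 1.08, 0.930, 0.790 and 0.597 RPM. Among promoters of transposable element genes alone they were 0.463, 0.676, 0.474 and 0.448 RPM, without a steady fall.

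Levels were lowest close to the gene. The authors' promoters reach about 1000 bp upstream, and 97.5% of the pairs of bin and gene lay in that range by the TAIR10.1 gene starts. For 6803 bins with 1 promoter mark and no transposable element gene, the median Col-0 level was 0.592 RPM within 200 bp of the gene start and 1.06 RPM from 700 bp up to 1000 bp. In each library of Col-0 the median of the class at 700 to 799 bp was above that of the class nearest the gene, at 0.674 against 0.360 RPM, 1.51 against 0.686 RPM and 1.21 against 0.603 RPM. The hexamer TATAAA, searched on both strands, was found in 23.5% of these bins within 100 bp of the gene and in 19.1% of those farther out. Over all promoter bins the share was 17.7%, over promoter bins with a transposon 18.9% and over gene-body bins 8.27%.

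**Figure D1:**
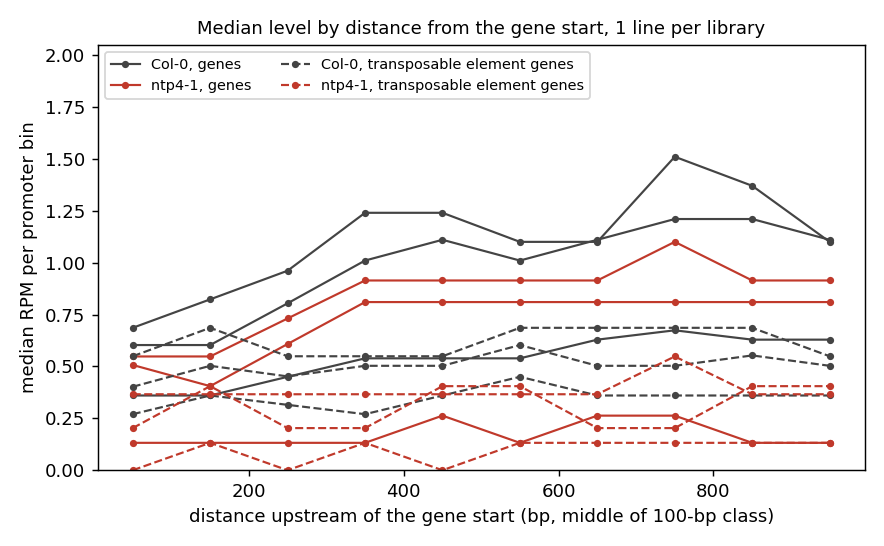
Median RPM of promoter bins by distance upstream of the gene start, 1 line per library, for Col-0 and ntp4-1. Solid lines are promoters of genes and dashed lines those of transposable element genes. In each Col-0 library the solid line is lower within 100 bp of the gene than at 700 to 799 bp, and the lines of ntp4-1 replicate 1 lie lowest.

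A few promoters carried much of the signal: 10 of the 4300 held 17.7% of the summed level of all promoter bins. The strongest was that of AT3G23650, which encodes a kinase-like protein. Its 8 bins summed to 1480, 1880 and 1990 RPM in Col-0, 1260, 1640 and 1370 in heso1-1, 1810, 1840 and 1270 in urt1-1, and 711, 1090 and 1290 in ntp4-1. The promoter of AT1G31175, a gene for a Cmc1-like protein of cytochrome c oxidase assembly, came next. It summed to 1000, 1510 and 1370 RPM in Col-0, 914, 1480 and 1330 in heso1-1, 1180, 1540 and 827 in urt1-1, and 350, 1010 and 1130 in ntp4-1. For both promoters ntp4-1 replicate 1 was the lowest library, and heso1-1 and urt1-1 overlapped with Col-0. The strongest bin of AT1G31175, printed above, averaged 512 RPM and lies over AT1G06417, a long non-coding RNA gene in TAIR10.1.

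Further promoters among these 10 were those of AT5G49930 (emb1441, a zinc knuckle protein) at a mean of 837.8 RPM, AT4G24974 (self-incompatibility S1 family) at 742.4, AT2G18530 (protein kinase) at 669.1, AT4G39200 (ribosomal protein S25) at 659.4, AT2G10557 at 568.2 and AT2G42885 (defensin-like) at 403.2 RPM over the 12 libraries. AT2G05290 at 794.8 RPM and AT1G34740 at 462.8 RPM are transposable element genes. In 7 of the 10 promoters the strongest bin held no 24-base word found elsewhere. No bin of these 10 promoters was called in a mutant against Col-0, and the smallest adjusted p of any of them was 0.161 (limma). With the replicate number as a block, bins of 7 of these promoters passed in ntp4-1 (14 of 78 bins, smallest adjusted p = 0.00107), and with the library set as a term bins of 9 (20 of 78, smallest 0.00323). Both shares are below those of all tested bins, 27.5% with the block and 32.9% with the set term. In heso1-1 and urt1-1 none passed in either fit. The level was sharply placed: in AT5G49930 the Col-0 means were 209, 272 and 521 RPM in the 3 bins farthest from the gene and 0.155 to 29.9 RPM in the 7 nearer ones.

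**Figure D2:**
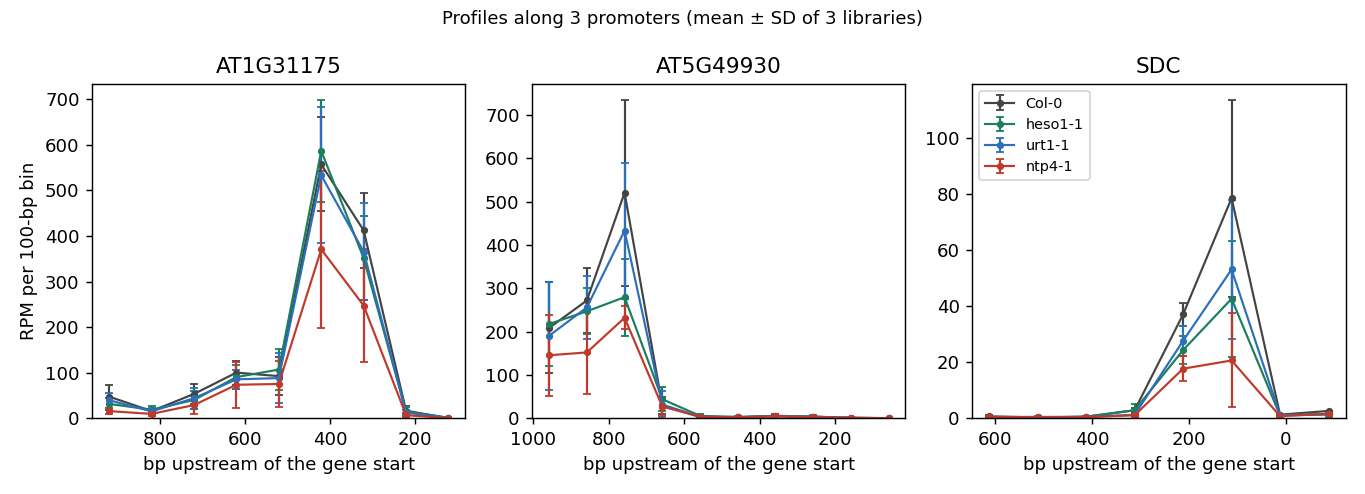
RPM per bin along the promoters of AT1G31175, AT5G49930 and SDC against the distance upstream of the gene start, with points at the mean and bars at the SD of 3 libraries per genotype. The bin with the highest mean is the same in all 4 genotypes, 421 bp upstream of AT1G31175, 758 bp upstream of AT5G49930 and 112 bp upstream of SDC. Single libraries differ. In SDC, ntp4-1 replicates 2 and 3 and urt1-1 replicate 2 are higher at 212 bp. For ntp4-1 these are 20.7 and 19.7 RPM against 12.0 and 9.87 RPM, with 39.9 RPM at 112 bp in replicate 1. In AT5G49930, heso1-1 replicate 3 and urt1-1 replicate 2 are highest at 958 bp.

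Some of the promoter bins lie over genes of TAIR10.1 that the authors' annotation does not place there. This held for 1336 bins (12.2%), which held 15.1% of the summed level. By the first gene hit, 566 lay over a protein-coding gene, 419 over a long non-coding RNA gene and 87 over a snoRNA gene. The 419 bins over long non-coding RNA genes held 9.9% of the summed level and the 566 over protein-coding genes 2.81%. A further 210 bins had at least 50% of their words in the mitochondrial genome, 201 of them on chromosome 2, with a median level of 0.235 RPM.

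Summed over all promoter bins, ntp4-1 was the lowest genotype, and libraries of a genotype differed widely. The sums were 44171, 61261 and 57092 RPM in Col-0 (mean 54174 ± 8911 SD, n = 3) and 36104, 55492 and 44673 RPM in heso1-1 (45423 ± 9716). In urt1-1 they were 43060, 55110 and 32156 RPM (43442 ± 11482), and in ntp4-1 16757, 36176 and 42388 RPM (31774 ± 13370). All 3 libraries of ntp4-1 were below all 3 of Col-0, while heso1-1 and urt1-1 overlapped with Col-0. As a share of the nuclear RPM, the bins held 9.53% ± 0.37 in Col-0, 8.83% ± 0.87 in heso1-1, 9.12% ± 0.63 in urt1-1 and 8.26% ± 1.16 in ntp4-1 (SD, n = 3). The ntp4-1 sum was 58.7% of that of Col-0 as deposited, but 83.8% after TMM scaling and 86.6% relative to the nuclear RPM of each library. After TMM scaling ntp4-1 and Col-0 overlapped, with ntp4-1 replicate 1 at 43223 and Col-0 replicate 2 at 41504. As a share of the nuclear RPM they did not, with at most 9.05% in ntp4-1 and at least 9.11% in Col-0. The sums are given as values with no test.

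**Figure D3:**
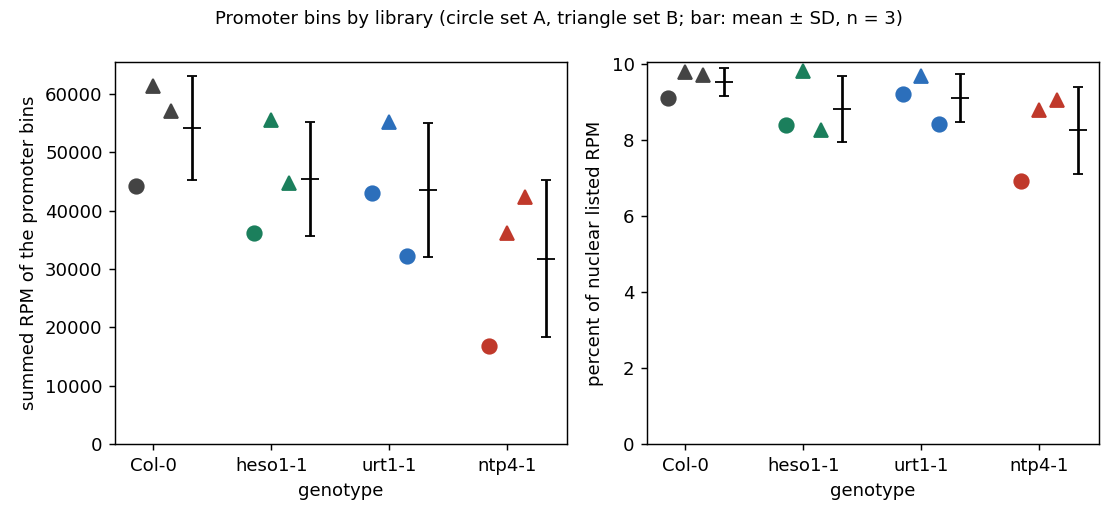
Summed RPM of the 10911 promoter bins (left) and their share of the nuclear listed RPM in percent (right), 1 point per library, with the mean and SD of 3 libraries beside them. Circles are set A and triangles set B. The ntp4-1 sums, 16757 to 42388 RPM, all lie below those of Col-0.

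In RPM, levels in ntp4-1 were lower than in Col-0 across promoter bins and across all bins alike, and the size of the shift depended on the scaling. The median log2 fold change of ntp4-1 against Col-0 was -0.74 over the tested promoter bins and -0.75 over all tested bins, and after TMM scaling -0.30 and -0.33. On whole reads, which lack Col-0 replicate 3, it was 0.06 and 0.01 in edgeR and 0.10 and 0.06 in DESeq2. Both programs scale libraries to their typical tested bin, which puts this median near 0 beforehand. These values, and those of edgeR for urt1-1 and heso1-1 below, therefore cannot show a direction. TMM scaling also sets libraries by their typical listed bin, so its medians are no independent measure of direction. In RPM without ntp4-1 replicate 1 the medians were -0.23 and -0.30. Without any other single library the promoter bins' median lay between -1.04 and -0.59. Every ntp4-1 library was below every Col-0 library at 1172 of 4213 tested promoter bins (27.8%), against 28.6% of all tested bins. For urt1-1 the medians were -0.36 and -0.40 (-0.11 and -0.15 after TMM scaling, and 0.07 and 0.00 in edgeR), with 13.6% of promoter bins and 14.7% of all bins wholly below Col-0. The promoter bins' median was -0.15 without urt1-1 replicate 3, -0.21 without Col-0 replicate 2, -0.57 without Col-0 replicate 1 and -0.58 without urt1-1 replicate 2. For heso1-1 they were -0.18 and -0.23 (-0.10 and -0.16 after TMM scaling, and 0.07 and -0.01 in edgeR), with 10.7% and 12.3%. Here the sign rested on single libraries: the promoter bins' median was 0.03 without heso1-1 replicate 1, -0.01 without Col-0 replicate 2, -0.09 without Col-0 replicate 3, -0.37 without heso1-1 replicate 2 and -0.40 without Col-0 replicate 1. The medians of the promoter bins did not move at 2 decimals when bins at 0 in a whole group were set to the bound that 3 reads over the group allow. Every library above Col-0 was seen at 0.522% of tested promoter bins in ntp4-1 (0.572% of all bins), 1.75% in urt1-1 (1.15%) and 1.81% in heso1-1 (1.3%). The 3 comparisons share the Col-0 libraries.

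**Figure D4:**
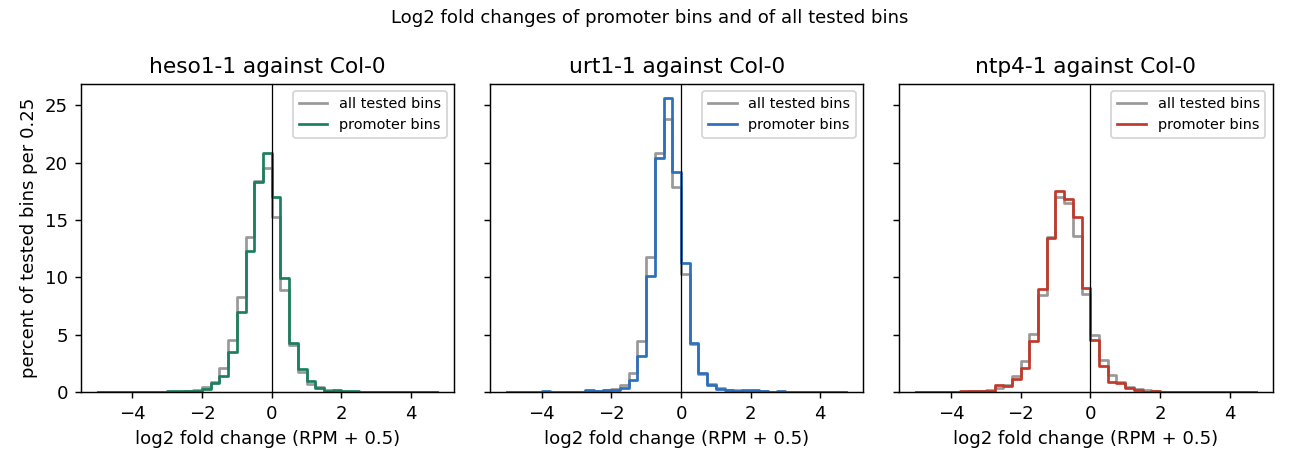
Distribution of log2 fold changes against Col-0 on the log2(RPM + 0.5) scale, as percent of tested bins in steps of 0.25, for promoter bins (colour) and all tested bins (grey). In each panel the 2 outlines nearly coincide, with medians of -0.18 and -0.23 for heso1-1, -0.36 and -0.40 for urt1-1, and -0.74 and -0.75 for ntp4-1.

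Single bins stood out from this shift. Each comparison used limma on log2(RPM + 0.5) over bins that averaged 1 RPM or more across its 6 libraries, two-sided. A bin was called at a Benjamini-Hochberg adjusted p under 0.05 over all tested bins. The comparisons against Col-0 and between mutants together called 21 promoter bins, upstream of 22 genes. Of these, 13 were called in 1 comparison, 5 in 2, 2 in 3 and 1 in 4. In 17 of the 21 no 24-base word occurred elsewhere in the nuclear genome, 2 (GSTF14 and AT4G10810) had a transposon bin beside them and 1 belonged to a transposable element gene. Their means over the 12 libraries were 1.42 to 39.3 RPM. In Col-0 the highest of them, that of AT1G27530, averaged 104 RPM, above the 99th percentile of 67.8 RPM.

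**Figure D5:**
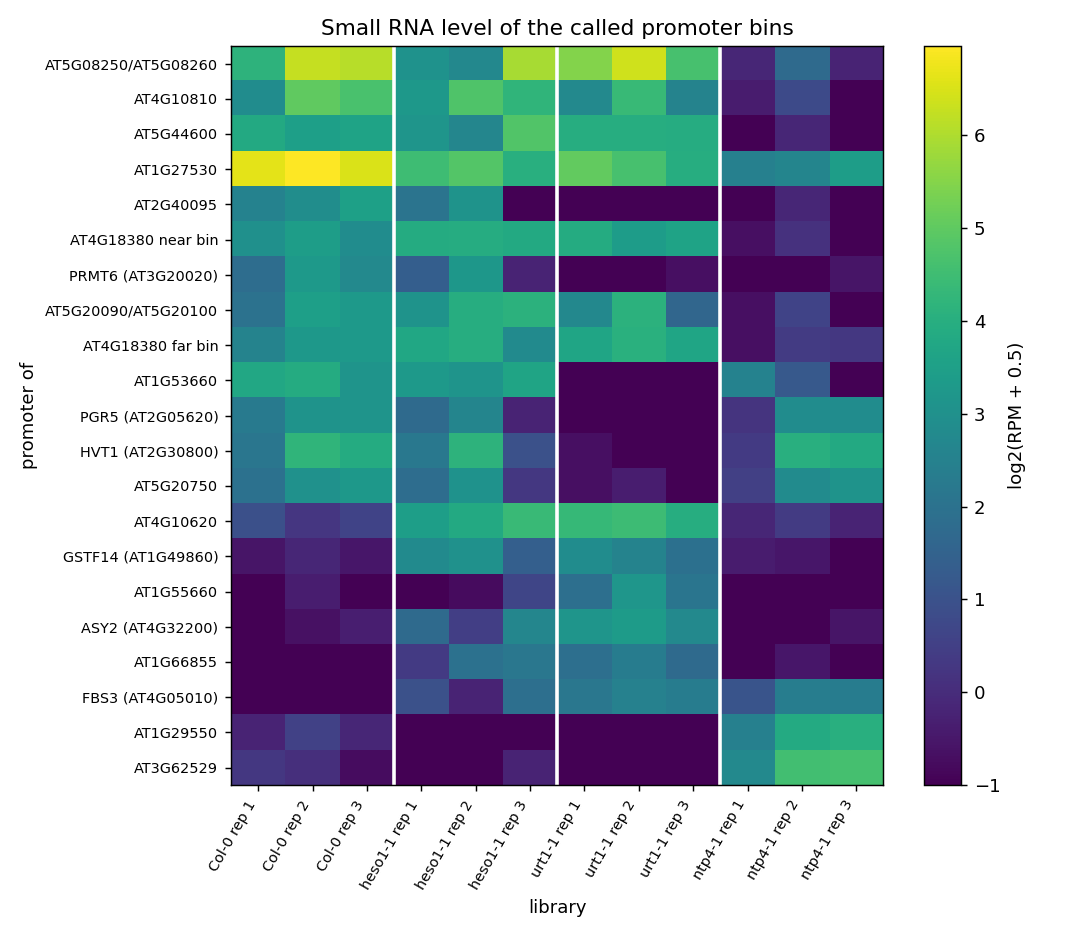
Level of the 21 called promoter bins in the 12 libraries, as log2(RPM + 0.5), with rows ordered by the difference between Col-0 and ntp4-1. Bins at the top are low in ntp4-1, those in the middle are low in urt1-1, or high in heso1-1 and urt1-1, and AT1G29550 and AT3G62529 at the bottom are high in ntp4-1.

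Against Col-0, 4 promoter bins were lower in ntp4-1 and none that passed the test was higher. The balance depended on the scaling, with 4 higher and 3 lower after TMM scaling and 14 higher and 9 lower in DESeq2. After TMM scaling AT1G27530 and AT4G18380 did not pass (adjusted p = 0.051 for both), and AT3G62529 and AT1G29550, described below with their ranges, passed as higher (0.0153 and 0.0152). The share as deposited was 0.0949% of 4213 tested promoter bins, against a background of 0.0756% of all 39696 tested bins. AT5G44600 encodes a methyltransferase of the S-adenosylmethionine-dependent superfamily. Its bin, 343 bp upstream, held 13.8, 10.7 and 11.7 RPM in Col-0 and 0, 0.405 and 0 RPM in ntp4-1. It held 8.36, 5.81 and 27.2 RPM in heso1-1 and 15, 14.9 and 14.7 RPM in urt1-1, so only the ntp4-1 libraries were near 0. Its log2 fold change in ntp4-1 was -4.36 (SE 0.49, adjusted p = 0.0155). AT4G18380, an F-box gene, showed the same arrangement in 2 adjacent bins, 857 and 957 bp upstream. The nearer bin held 7.55, 10.4 and 6.83 RPM in Col-0, 14.5, 14.8 and 13.8 in heso1-1, 14.3, 10 and 11.7 in urt1-1, and 0.132, 0.608 and 0 in ntp4-1. It fell by 3.62 on the log2 scale in ntp4-1 (SE 0.51, adjusted p = 0.0476), and the farther bin did not pass (-3.02, adjusted p = 0.089). For the farther bin the adjusted p was 0.051 after TMM scaling, 2.36e-06 with the replicate number as a block and 0.000213 with the library set as a term.

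The other losses in ntp4-1 were shared in part by the other mutants. AT1G27530 encodes the conjugating enzyme of the ubiquitin-fold modifier, and its bin lies 719 bp upstream, over the protein-coding gene AT1G27535 of TAIR10.1. It held 97.9, 124 and 90.4 RPM in Col-0, 22.1, 28.0 and 15.9 in heso1-1, 32.6, 24.3 and 15.2 in urt1-1, and 5.00, 5.67 and 10.4 in ntp4-1. The 9 mutant libraries were all below the 3 of Col-0. Against Col-0 the log2 fold change was -3.85 in ntp4-1 (SE 0.51, adjusted p = 0.0403), -2.24 in heso1-1 (SE 0.40, adjusted p = 0.107) and -2.14 in urt1-1 (SE 0.38, adjusted p = 0.0948), of which only the first passed. AT2G40095, which encodes a protein related to alpha/beta hydrolases, was at 5.30, 7 and 11 RPM in Col-0 and 3.68, 7.95 and 0 RPM in heso1-1. It was at 0 in all urt1-1 libraries and at 0, 0.405 and 0 RPM in ntp4-1. Its log2 fold change in ntp4-1 was -3.70 (SE 0.51, adjusted p = 0.0476).

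By the naming rule, the bins with the smallest p on the higher side in ntp4-1 are given although they did not pass. AT3G62529, a pseudogene, held 6.19, 22.7 and 23.9 RPM in ntp4-1 and 0.719, 0.549 and 0.101 RPM in Col-0 (adjusted p = 0.0706). AT1G29550, a gene for the cap-binding translation factor eIF4E, held 5, 14 and 15.9 RPM in ntp4-1 and 0.360, 0.961 and 0.402 RPM in Col-0 (adjusted p = 0.0883). In both bins every ntp4-1 library was above every library of the other genotypes. With the replicate number as a block both passed (adjusted p = 8.05e-08 and 6.14e-07, over a range of 5.33e-09 to 0.588 and 5.37e-08 to 0.588 across their alternatives). A bin shared by the divergent genes AT5G05820 and AT5G05830 held 1.58, 8.71 and 9.87 RPM in ntp4-1 and at most 0.130 RPM in any other library (adjusted p = 0.0982 against Col-0, and 2.84e-06 with the block, the lowest of a range up to 0.676). On the lower side, the bin between AT5G08250, a cytochrome P450 gene, and AT5G08260, a serine carboxypeptidase-like gene, held 17.3, 76.6 and 68.0 RPM in Col-0 and 0.395, 2.84 and 0.366 RPM in ntp4-1 (adjusted p = 0.0673, and 5.64e-10 with the block, the lowest of a range up to 0.751). FBS3, described with urt1-1, was at 0 in Col-0 and at 1.58, 4.66 and 4.57 RPM in ntp4-1 in the bin called in urt1-1 (adjusted p = 0.0982, and 5.85e-05 with the block, the lowest of a range up to 0.676). The next bin of FBS3 was at 2.5, 2.23 and 3.66 RPM in ntp4-1 (adjusted p = 0.0982, and 0.000206 with the block, the lowest of a range up to 0.751).

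The ntp4-1 count rested on the fit and on which libraries were used. With the replicate number as a block it was 1117 (27 higher, 1090 lower, 26.5% of tested promoter bins against 27.5% of all bins). Without ntp4-1 replicate 1 it was 312 (32 higher, 280 lower, 6.93% of tested promoter bins against 6.70% of all bins), without Col-0 replicate 1 it was 1, and it was 0 without any one of the other 4 libraries. With the library set as a term it was 1415, of which 1385 were lower (33.6% of promoter bins against 32.9% of all), and with TMM scaling as well 315, of which 266 were lower (7.48% against 7.22%). Within set B, 2 libraries against 2, it was 889 (19.2% against 17.7%). Set A holds 1 library of each of these genotypes and gives no value. On whole reads edgeR called 0 (213 at an unadjusted p under 0.05) and DESeq2 called 23. Each of the 4 bins was called in only 1 of the 6 fits that leave out a library. Replicates 2 and 3 of Col-0 and ntp4-1 correlated about as much across numbers as within them. The counts and p-values with the block therefore rest on an assumed pairing.

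In urt1-1, 12 promoter bins changed against Col-0, 6 up and 6 down, which is 0.273% of 4390 tested bins against a background of 0.186% of all 41906. The firmest was a loss at AT1G53660, a gene of the nodulin MtN21/EamA-like transporter family. Its bin, 635 bp upstream and over AT1G53655 of TAIR10.1, held 13.3, 14.4 and 8.24 RPM in Col-0 and 9.36, 8.13 and 12.0 RPM in heso1-1. It was at 0 in all 3 libraries of urt1-1 and at 5.27, 1.82 and 0 RPM in ntp4-1. Against Col-0 it was at least 76.6-fold lower in urt1-1, with the bound set by 3 reads over the group (adjusted p = 0.00168), and it was called in all 6 fits that leave out a library. Of its 24-base words 80.5% occur more than once in the nuclear genome, so the origin of its reads is uncertain.

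The other 5 losses in urt1-1 were in unique sequence. AT2G40095 was at least 49.5-fold lower, with the values above (adjusted p = 0.00533). PGR5, which acts in cyclic electron flow around photosystem I, was at 4.32, 7.96 and 8.24 RPM in Col-0 and at 0 in urt1-1, at least 43.7-fold lower (adjusted p = 0.00647). HVT1, a helicase of vascular tissue and tapetum, was at 3.87, 17.8 and 14.3 RPM in Col-0 and at 0.129, 0 and 0 RPM in urt1-1 (log2 fold change -4.29, SE 0.55, adjusted p = 0.0153). PRMT6, an arginine methyltransferase, was at 3.06, 9.47 and 6.23 RPM in Col-0 and at 0, 0 and 0.130 RPM in urt1-1 (-3.52, SE 0.48, adjusted p = 0.0218). The transposable element gene AT5G20750 was at 3.42, 7.69 and 9.05 RPM in Col-0 and at 0.129, 0.271 and 0 RPM in urt1-1 (-3.43, SE 0.46, adjusted p = 0.0216). In heso1-1 these 5 bins had the same layout: replicates 1 and 2 lay within or near the range of Col-0, and replicate 3 was low, at 0 for AT2G40095, 0.362 for PGR5 and PRMT6, 1.45 for HVT1 and 0.724 for AT5G20750. In ntp4-1, PGR5, HVT1 and AT5G20750 were at 6.69 to 15.6 RPM in replicates 2 and 3 and at 0.658 to 0.922 RPM in replicate 1. PRMT6 was low in ntp4-1 too, at 0, 0 and 0.183 RPM, below every Col-0 library. It did not pass there (limma, -3.48, SE 0.54, adjusted p = 0.0706), but did with the library set as a term (0.000277). AT2G40095 was low in ntp4-1 as given above.

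The 6 bins that rose in urt1-1 were near 0 in Col-0. AT4G10620 encodes a P-loop nucleoside triphosphate hydrolase, and its bin lies 233 bp upstream. It held 1.44, 0.686 and 1.01 RPM in Col-0, 10.6, 13.8 and 20.6 in heso1-1, 19.7, 21.6 and 14.9 in urt1-1, and 0.395, 0.810 and 0.366 in ntp4-1. The heso1-1 and urt1-1 libraries were all above those of Col-0 and ntp4-1. It rose in urt1-1 (log2 fold change 3.65, SE 0.38, adjusted p = 0.00548) and in heso1-1 (3.31, SE 0.43, adjusted p = 0.0241). ASY2, a HORMA-domain relative of the meiotic chromosome axis protein ASY1, was at 0, 0.137 and 0.302 RPM in Col-0 and at 8.38, 9.74 and 6.22 RPM in urt1-1 (3.74, SE 0.40, adjusted p = 0.00577). GSTF14, a glutathione transferase, was at 0.180, 0.412 and 0.201 RPM in Col-0 and at 6.84, 5.41 and 3.37 RPM in urt1-1 (2.86, SE 0.42, adjusted p = 0.033). The transposon bin beside it, the only other bin listed within 500 bp, rose as well. That neighbour held 0.18, 0 and 0.302 RPM in Col-0, 12.5, 8.67 and 5.07 in heso1-1, and 12.1, 2.71 and 7.78 in urt1-1, so the change was not confined to the promoter bin.

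The remaining rises were smaller in level. FBS3, an F-box gene, was at 0 in Col-0 and at 4, 5.14 and 4.54 RPM in urt1-1, at least 28.0-fold higher (adjusted p = 0.0134). In heso1-1 this bin was at 1.45, 0.357 and 3.26 RPM, above Col-0 in every library, but its mean was too low for the test there. AT1G66855, of the carbohydrate-binding X8 family, was at 0 in Col-0 and at 3.22, 4.60 and 2.85 RPM in urt1-1, at least 21.8-fold higher (adjusted p = 0.0374). AT1G55660, an F-box and leucine-rich repeat gene, was at 0, 0.274 and 0 RPM in Col-0 and at 3.22, 8.66 and 3.76 RPM in urt1-1 (3.18, SE 0.49, adjusted p = 0.0422). In heso1-1, GSTF14, ASY2 and AT1G66855 were also above Col-0 in every library, at 6.46, 7.60 and 2.17 RPM, 2.90, 0.894 and 5.79 RPM, and 0.780, 3.40 and 3.98 RPM, without passing the test. In ntp4-1 no library of these 3 bins exceeded 0.263 RPM. The pollen miRNA miR2939 had a like order, with 0.0899 to 0.804 RPM in Col-0, 1.56 to 7.24 in heso1-1, 2.07 to 6.76 in urt1-1 and 0.263 to 1.28 in ntp4-1, while the summed pollen miRNAs did not. Its part in these rises was not tested.

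The urt1-1 count was 11 without Col-0 replicate 1, 3 without Col-0 replicate 2, 2 without Col-0 replicate 3, 2 without urt1-1 replicate 1, 21 without urt1-1 replicate 2 and 5 without urt1-1 replicate 3. With the library set as a term it was 188, of which 138 were lower (4.28% of promoter bins against 4.05% of all), and with TMM scaling alone 23, of which 10 were lower (0.524% against 0.291%). Within set B, 1 urt1-1 library against 2, it was 173 (3.45% against 3.51%), and within set A, 2 against 1, it was 0 (limma, in which the lone library is assumed to vary like the others). On whole reads edgeR called 0 (170 at an unadjusted p under 0.05) and DESeq2 called 38.

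In heso1-1 a single promoter bin passed against Col-0, the rise at AT4G10620, which is 0.0221% of 4531 tested bins against a background of 0.0527% of all 43648. The next smallest p on the higher side were those of PHF1, a factor for the export of phosphate transporters from the endoplasmic reticulum, and YUC2, an enzyme of auxin synthesis. PHF1 was at 0.809, 0.686 and 0.905 RPM in Col-0 and at 5.91, 7.77 and 10.9 RPM in heso1-1 (adjusted p = 0.0529). YUC2 was at 0 in Col-0 and at 3.01, 3.57 and 4.35 RPM in heso1-1, at least 22.4-fold higher (adjusted p = 0.0645). AT1G36185, a transposable element gene, was at 0.809, 0.412 and 0.503 RPM in Col-0 and at 13.7, 5.27 and 4.71 RPM in heso1-1 (adjusted p = 0.086), and GSTF14, with the values above, had an adjusted p of 0.117. On the lower side, the transposable element gene AT5G34431 was at 2.88, 4.80 and 2.81 RPM in Col-0 and at 0 in heso1-1, at least 26.7-fold lower (adjusted p = 0.0833). AT3G28330 was at 2.61, 4.53 and 3.42 RPM in Col-0 and at 0, 0.179 and 0 RPM in heso1-1 (adjusted p = 0.0892). AMSH1, a deubiquitinating enzyme, was at 149, 84.0 and 74.6 RPM in Col-0 and at 5.35, 2.14 and 19.2 RPM in heso1-1 (adjusted p = 0.0833). UPL5, a ubiquitin ligase, was at 5.39, 7.96 and 5.23 RPM in Col-0 and at 0.891, 0.983 and 0.362 RPM in heso1-1 (adjusted p = 0.0948). Several of these shifts were shared. At PHF1, YUC2 and AT1G36185 every urt1-1 and ntp4-1 library was also above Col-0, and at AMSH1 and UPL5 every one was below. PHF1 was at 7.61, 9.2 and 3.5 RPM in urt1-1 and at 2.63, 5.47 and 5.85 RPM in ntp4-1. At GSTF14, AT5G34431 and AT3G28330 the ntp4-1 libraries overlapped with those of Col-0. With the replicate number as a block the count was also 1, but the bin was another: AT4G10620 did not pass (adjusted p = 0.057, in a range of 0.000295 to 0.708), and the fall at AT1G27530 did (adjusted p = 0.034, in a range of 0.00348 to 0.747). PHF1, YUC2, AT1G36185, GSTF14, AT5G34431, AT3G28330, AMSH1 and UPL5 passed neither with nor without the block, and in each the 2 genotypes did not overlap. After TMM scaling PHF1 and YUC2 passed (adjusted p = 0.0439 and 0.0483, in ranges of 0.000888 to 0.708 and 0.0017 to 0.693), and with the library set as a term PHF1 and AT1G36185 did (0.0382 for both, the range for AT1G36185 being 0.012 to 0.938). The count was 1 without Col-0 replicate 1, 2 without heso1-1 replicate 1 or replicate 3, and 0 without Col-0 replicate 2, Col-0 replicate 3 or heso1-1 replicate 2. On whole reads edgeR called 0 (169 at an unadjusted p under 0.05) and DESeq2 called 22.

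Between mutants, ntp4-1 and heso1-1 differed at 7 promoter bins (2 higher and 5 lower in ntp4-1), or 0.172% of 4075 tested against a background of 0.0466% of all 36445. AT1G29550 was at 0 in all heso1-1 and urt1-1 libraries, so ntp4-1 was at least 88.9-fold and 74.3-fold higher (adjusted p = 0.0211 and 0.0327). AT3G62529 was at 0, 0 and 0.362 RPM in heso1-1 and at 0 in urt1-1. Its log2 fold change against heso1-1 was 4.70 (SE 0.67, adjusted p = 0.0217), and against urt1-1 ntp4-1 was at least 112-fold higher (adjusted p = 0.0308). No other bin was listed within 500 bp of the AT1G29550 bin, and the 1 listed near AT3G62529 did not exceed 0.922 RPM. Lower in ntp4-1 than in heso1-1 were AT5G44600, AT4G18380 and AT4G10620, with the values above, AT4G10810, and the bin between AT5G20090, of the family of mitochondrial pyruvate carriers, and AT5G20100. The last 2 held 8.91, 26.7 and 18.1 RPM, and 8.02, 15.2 and 17.0 RPM, in heso1-1. In ntp4-1 they held 0.263, 1.22 and 0 RPM, and 0.132, 1.01 and 0 RPM. AT4G10810 has a transposon bin beside it, and the 5 other bins listed within 500 bp are outside the promoter bins described here. Their summed level was also lower, at 52.1, 35.9 and 18.5 RPM in heso1-1 and 0.922, 5.67 and 4.2 RPM in ntp4-1.

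Against urt1-1, ntp4-1 differed at 8 promoter bins (2 higher and 6 lower), or 0.203% of 3935 tested against a background of 0.0717% of all 34861. Lower in ntp4-1 were AT5G44600, both bins of AT4G18380, AT4G10620, ASY2 and the bin between AT5G08250 and AT5G08260. The last held 44.1, 83.6 and 24.6 RPM in urt1-1, and its log2 fold change was -5.05 (SE 0.72, adjusted p = 0.0437). Only AT1G53660 differed between urt1-1 and heso1-1, where it was at least 62.7-fold lower in urt1-1 (adjusted p = 0.0133). That is 0.0233% of 4286 tested promoter bins against 0.00512% of all 39043. Next by p between urt1-1 and heso1-1, each with an adjusted p of 1, were AT1G55660, AT3G04390, both bins of AT2G17540 and AT4G04180, with positive differences, and HVT1, RHC1A, the bin of AT2G05250 and AT2G05260, and PMDH1, with negative ones. Among them AT3G04390 was at 18.9, 13.7 and 11.9 RPM in Col-0, 1.89, 2.77 and 3.26 in heso1-1, 17.4, 10 and 11.3 in urt1-1, and 1.19, 3.04 and 0.366 in ntp4-1, and RHC1A was at 12.9, 32.3 and 0.724 RPM in heso1-1 and at most 0.302 RPM elsewhere.

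Without a call being asked for, all ntp4-1 libraries lay above all of heso1-1 at 21 promoter bins (0.515%, against 0.659% of all bins) and below them at 503 (12.3%, against 11.9%). Against urt1-1 they lay above at 24 (0.61%, against 0.734%) and below at 466 (11.8%, against 11.1%). The urt1-1 libraries lay above all of heso1-1 at 61 (1.42%, against 1.9%) and below at 160 (3.73%, against 3.85%). With the replicate number as a block, 47 promoter bins differed between ntp4-1 and heso1-1 (7 higher and 40 lower, 1.15% against 0.834% of all bins). Without ntp4-1 replicate 1 the counts were 38 against heso1-1 (0.871% against 0.739% of all bins) and 22 against urt1-1 (0.522% against 0.244%). Against heso1-1 it was 17 without heso1-1 replicate 1, 9 without ntp4-1 replicate 2, and 0 without heso1-1 replicate 2, heso1-1 replicate 3 or ntp4-1 replicate 3. Against urt1-1 it was 0 without any of the other 5 libraries. Between urt1-1 and heso1-1, AT1G53660 was also called without urt1-1 replicate 2 and without urt1-1 replicate 3. It was not called without urt1-1 replicate 1 or any one of the heso1-1 libraries, and without heso1-1 replicate 3 the single called bin was another. On whole reads edgeR called 0 in these 3 comparisons (173, 188 and 122 at an unadjusted p under 0.05), and DESeq2 called 27, 41 and 6.

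Bins that switched between a level and none were rare. At least 5 RPM in all 3 libraries of a genotype and under 0.5 RPM in all 3 of another was seen at 6 promoter bins, which were those of AT1G29550, AT1G53660, AT2G40095, AT3G62529, ASY2 and AT5G44600. That is 0.550 per 1000 promoter bins, against 0.504 per 1000 in promoter bins with a transposon and 0.247 per 1000 in gene-body bins. In unannotated bins it was 0.372 per 1000 and in bins with a transposon only 0.211. Most listed bins are too low to meet the rule. Among bins with a mean of at least 1 RPM the counts were 6 of 4257, 10 of 5663 and 5 of 4741 in the first 3 classes. On that base promoter bins with a transposon had the highest share of these 3, so the order depends on the base. By a looser rule, at least 5 RPM in a library and under 0.5 RPM in another of the same genotype was seen at 16 promoter bins in Col-0, 43 in heso1-1, 32 in urt1-1 and 135 in ntp4-1. In 125 of the 135 the library under 0.5 RPM was ntp4-1 replicate 1. The median coefficient of variation over the 1532 bins with a mean of at least 5 RPM was 32.7% in Col-0, 39.8% in heso1-1, 40.0% in urt1-1 and 59.7% in ntp4-1.

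Among genes of the silencing machinery, 7 of 41 had promoter bins (27 bins), and none of those tested was called against Col-0 (0 of 17 in heso1-1, 0 of 17 in urt1-1 and 0 of 18 in ntp4-1, with 1, 2 and 5 at an unadjusted p under 0.05, limma). In ntp4-1 the fit changed this: 6 of the 18 bins passed with the replicate number as a block and 6 with the library set as a term, beside 26.5% and 33.6% of all tested promoter bins. With the block the smallest adjusted p was 0.000788 for RDR1, 0.00171 for DRD1, 0.00564 for NRPD2, 0.0184 for DCL4 and 0.0492 for NRPE1. In urt1-1, 2 of 17 passed with the library set as a term, both of NRPD2, beside 4.05% of all tested bins. DCL4, the Dicer of trans-acting siRNAs, had the highest level, with 31.1, 50.5 and 37.9 RPM in Col-0, 25.6, 38.6 and 16.3 in heso1-1, 41.5, 45.2 and 29.8 in urt1-1, and 7.77, 17.8 and 27.6 in ntp4-1. RDR1, an RNA-dependent RNA polymerase, was at 38.0, 42.8 and 34.9 RPM in Col-0 and at 9.22, 14.8 and 17.9 RPM in ntp4-1. NRPD2, a subunit shared by Pol IV and Pol V, was at 7.37, 18.1 and 15.9 RPM in Col-0, 6.57, 18.1 and 1.09 in heso1-1, 2.32, 5.14 and 1.43 in urt1-1, and 2.77, 16.8 and 17.7 in ntp4-1. All 3 urt1-1 libraries of NRPD2 were below Col-0, with a smallest adjusted p of 0.182. AGO10, DRD1, DCL3 and NRPE1 were the other 4, and their promoters overlapped between Col-0 and at least 1 mutant. The median log2 fold change of the list in ntp4-1 was -0.78, beside -0.75 over all tested bins.

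Silenced and imprinted genes had promoter bins in 6 of 13 cases (16 bins, 7 tested, none called, with 0, 1 and 2 at an unadjusted p under 0.05 in heso1-1, urt1-1 and ntp4-1, limma). SDC, an F-box gene that promoter methylation keeps silent, was at 167, 104 and 99.3 RPM in Col-0, 91.0, 67.6 and 60.8 in heso1-1, 109, 64.4 and 83.9 in urt1-1, and 54.8, 38.1 and 35.8 in ntp4-1. All libraries of heso1-1 and ntp4-1 were below those of Col-0, and the smallest adjusted p over its bins was 0.775 in heso1-1 and 0.182 in ntp4-1. In ntp4-1, 3 of the 7 tested bins of this list passed with the replicate number as a block (SDC at 0.000445 and MPC at 0.00859) and 5 with the library set as a term (SDC at 0.00116 and MPC at 0.00524). Over all tested bins 27.5% passed in ntp4-1 with the block and 32.9% with the set term. In urt1-1, 1 bin of this list passed with the library set as a term, beside 4.05% of all tested bins. Most of the SDC level came from the 2 bins printed above, in which 139 of 200 bases lie in repeated words. These bins averaged 37.0 and 78.4 RPM in Col-0, and the other 6 bins of the promoter averaged 2.84 RPM or less. MPC, an imprinted gene, was at 22.2, 11.3 and 12.6 RPM in Col-0 and at 5.79, 4.46 and 4.75 RPM in ntp4-1. FWA, an imprinted homeodomain gene, had 1 bin at 2.34, 4.67 and 4.52 RPM in Col-0. None of the 12 genes of methylation upkeep and none of the 25 floral regulators had a promoter bin that met the rule.

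Grouped by the gene downstream, protein-coding genes held 7589 of the bins and 83.6% of the Col-0 level, with 11 of the 12 urt1-1 calls and all 4 ntp4-1 calls. Transposable element genes held 2440 bins and 11.5% of the level, pseudogenes 757 bins and 2.95%. MIR genes had 41 bins upstream of 23 genes, tRNA genes 139 bins upstream of 87, and genes for snoRNA, snRNA or rRNA 45 bins upstream of 35. None of these last 3 groups had a call (limma), with 2, 0 and 0 tested bins at an unadjusted p under 0.05 in heso1-1, 0, 1 and 0 in urt1-1, and 3, 2 and 1 in ntp4-1. In ntp4-1 they had 3, 5 and 3 calls with the replicate number as a block, of 13, 36 and 18 tested bins, and 4, 8 and 3 with the library set as a term. Over all tested bins 27.5% passed with the block and 32.9% with the set term, so none of the 3 groups exceeded that share. The highest promoter of a MIR gene was that of MIR406, at 42.0, 55.4 and 52.7 RPM in Col-0 and 13.8, 34.8 and 32.2 RPM in ntp4-1. In the promoter of MIR823 the level varied within genotypes, from 0 to 25.3 RPM in heso1-1 and from 1.10 to 12.6 RPM in ntp4-1, beside 19.4 to 34.2 RPM in Col-0.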

How the data were processed

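Small RNA libraries from 12 inflorescence samples had been made with the NEBNext small RNA kit after TRIzol extraction and DNase I treatment, per the labels' protocols. The authors deposited RPM (read counts scaled to library size) per bin of 100 bp, each with its annotation. No other value column was found (0 columns). Not given in the sources used here were the aligner, the genome build, the treatment of reads with several matches and the rule by which bins were listed. In 11 columns 100% of the values were whole multiples of 1 read, within a tolerance of 1e-06. Col-0 replicate 3 was not, so it is absent from the tests on reads. On these reads edgeR 4.0.16 called 0 promoter bins in each comparison and DESeq2 1.42.0 called 6 to 41.

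Groups came from the sample labels. Replicate numbers come from the sample titles. Deviations of same-numbered libraries correlated above 0.1 in all 3 pairs for heso1-1 with Col-0 (lowest 0.183), ntp4-1 with Col-0 (0.311) and ntp4-1 with heso1-1 (0.196), so blocked values are given beside the results of these comparisons whose call they change. They did not in the comparisons with urt1-1 (lowest -0.339). In the comparisons without urt1-1, replicates 2 and 3 correlated about as much across numbers. Col-0 replicate 2 with heso1-1 replicate 3 gave 0.244, and Col-0 replicate 3 with ntp4-1 replicate 2 gave 0.323. For heso1-1 replicate 3 with ntp4-1 replicate 2 it was 0.284. The numbers set replicate 1 apart but do not show that replicates 2 and 3 pair, so blocked p-values rest on an assumed pairing. Promoter bins were taken by their annotation, and gene starts, products and sequences from TAIR10.1, in which 4205 of the 4300 promoter genes were found. The last listed bin of each chromosome lay within the bin that holds the TAIR10.1 chromosome end or before it. All nuclear and organelle bins entered each fit: log2(RPM + 0.5) was tested with limma 3.58.1 under R 4.3.3, using a mean-variance trend, over bins averaging 1 RPM or more across both groups compared, two-sided, with Benjamini-Hochberg adjustment over all bins and a threshold of 0.05. Fold changes on this scale understate the change of low bins. Fold bounds use 3 reads over the summed reads of a group (Col-0 replicates 1 and 2 for Col-0) and cover counting error only. Overlapping genes cannot be told apart, because bins carry no strand. Named were, per comparison, called bins without overlap between groups (the 8 largest rises and falls), the 5 smallest p each way where fewer than 5 were called, the 10 highest promoters, and the highest promoters of each list. The bins, lists and tests were chosen with earlier results of these data known. The limma step was tested on simulated counts. Alternatives were TMM scaling, other pseudocounts and filters, a replicate block, a joint fit, runs of bins, tests on reads and leaving out libraries. The library set term, alone or with TMM scaling, and the fits within a set were chosen after seeing the data.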

Additional observations from a re-analysis of the deposited data

Results flagged for a closer look

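These promoter bins differed between 2 mutants in a direct test (limma, adjusted p under 0.05), so the change against the shared Col-0 libraries was not the same in both. Values are log2 fold changes on the log2(RPM + 0.5) scale. Those of bins at 0 in a whole group depend on the 0.5 added, and their bounds stand in the report.

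Between ntp4-1 and heso1-1 the difference was 4.70 at AT3G62529, 4.45 at AT1G29550, -4.40 at AT4G18380, -4.28 at AT4G10810, -4.25 at AT5G44600, -4.09 at the bin between AT5G20090 and AT5G20100, and -3.90 at AT4G10620. In each of the 7 bins all 3 libraries of a mutant were on the same side of all 3 of the other.

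Between ntp4-1 and urt1-1 the difference was 4.96 at AT3G62529, 4.45 at AT1G29550, -5.05 at the bin between AT5G08250 and AT5G08260, -4.65 at AT5G44600, -4.24 at AT4G10620, -4.13 and -3.79 at the 2 bins of AT4G18380, and -3.94 at ASY2. Between urt1-1 and heso1-1 it was -4.35 at AT1G53660.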

How the results depend on the processing

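Counts of called promoter bins are given in the order heso1-1, urt1-1 and ntp4-1 against Col-0, ntp4-1 against heso1-1, ntp4-1 against urt1-1, and urt1-1 against heso1-1, and were 1, 12, 4, 7, 8 and 1 as reported. TMM scaling gave 3, 23, 7, 5, 13 and 0. A pseudocount of 0.1 gave 1, 6, 0, 0, 0 and 0, and a pseudocount of 1 gave 3, 11, 5, 8, 6 and 1. No filter gave 18, 27, 23, 25, 23 and 5, and a mean of at least 5 RPM gave 0, 1, 0, 0, 0 and 0. One fit over all 12 libraries gave 3, 18, 90, 20, 21 and 0, and runs of adjacent bins gave 2, 16, 5, 4, 7 and 0. On whole reads edgeR gave 0 in all 6 and DESeq2 gave 22, 38, 23, 27, 41 and 6. With the replicate number as a block the counts were 1, 39, 1117, 47, 34 and 0. For the 3 comparisons with urt1-1 the numbers do not pair the samples, so the values of 39, 34 and 0 rest on a shared number only. In the other comparisons the numbers set replicate 1 apart, but a pairing of replicates 2 and 3 was not shown. Leaving out 1 library gave 0 to 2, 2 to 21, 0 to 312, 0 to 38, 0 to 22 and 0 to 1.

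Chosen after seeing the data were the library set term (3, 188, 1415, 32, 153 and 1), the same with TMM scaling (3, 189, 315, 22, 42 and 1) and the fits within a set. Set B gave 0, 173, 889, 12, 43 and 0, and set A gave 0 for the 3 comparisons with urt1-1 and could not be fitted for the others. Summed RPM as percent of Col-0 was 83.8 in heso1-1 (74.6 to 92.4 leaving out 1 library), 80.2 in urt1-1 (69.4 to 90.6) and 58.7 in ntp4-1 (48.9 to 72.5). The ntp4-1 value moved to 83.8 with TMM scaling and 86.6 relative to nuclear RPM. Of the alternatives for single named bins, 685 kept the side of the threshold, 92 gained a call, 249 lost one and 0 changed sign. The cause of these changes was not tested. The fits within a set or without a library also have smaller groups. Where 1 read is worth up to 0.362 RPM, values near that level rest on single reads.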
